A study of Mus musculus with 9 samples.

Results

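Pulmonary lymphatic endothelial cells (PLECs) of the mouse fetus were compared between E18.5 and E17.5, the last step of a gestational time course that began at E16.5. The comparison used 6 of the 9 arrays of the series, 3 at each day. Each sample was total RNA of CD45-/Epcam-/CD31+/Vegfr3+/Lyve1+/Pdpn+ cells sorted from a pool of C57BL/6N fetal lungs taken from 2 litters, with no genetic modification and no treatment at either age. A gene entered the comparison where 1 or more of the 6 arrays gave it a log2 level above that array's own median, which held for 13839 of the 25206 genes measured. The E16.5 samples entered the fit, where they add to the estimate of the spread, and are otherwise used here only to set the later change beside the earlier one.

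Lymphatic endothelium forms blind-ended vessels that take up interstitial fluid, macromolecules and immune cells. Prox1 sets its identity, Vegfr3 (encoded by *Flt4*) receives the growth signal of Vegfc, and Lyve1 and podoplanin mark its surface. In the days before birth the lung prepares for air breathing: alveolar type I and type II cells mature, surfactant is made, and the liquid that fills the airspaces begins to be cleared. An embryonic day separates the groups, so the question was which genes of these sorted cells differed across the last interval sampled before birth.

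The genes of the 4 positive sort markers and *Prox1* were above the array median on all 6 arrays. *Pecam1*, which encodes CD31, read 11.36, 11.16 and 11.42 at E17.5 and 11.04, 11.13 and 11.21 at E18.5 on the log2 scale, and the groups overlapped. *Lyve1* read 11.05, 10.58 and 11.28 at E17.5 against 10.41, 10.80 and 11.22 at E18.5. *Prox1*, which was not used in the sort, read 5.24, 4.11 and 5.36 against 5.28, 5.75 and 5.89. These 3 genes did not pass the test (FDR q = 0.47, 0.79 and 0.24, limma), and *Prox1* was lowest on the array of E17.5 replicate 2. *Flt4* lay between 8.34 and 8.62 at E17.5 and between 7.90 and 8.34 at E18.5 (FDR q = 0.27). *Pdpn*, the remaining positive sort marker, lay between 5.68 and 6.12 at E17.5 and between 6.80 and 7.69 at E18.5 and was upregulated (log2 change 1.28, FDR q = 0.026). *Epcam* and *Ptprc*, whose proteins had been gated out, lay between 4.56 and 5.06 and between 2.18 and 2.38 at E17.5, and between 5.14 and 5.50 and between 2.59 and 3.92 at E18.5 (FDR q = 0.37 and 0.22). *Emcn*, a marker of blood endothelium, was high on every array (10.31 to 10.87), and levels of different probe sets cannot be ranked against each other.

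The arrays that stood apart were E18.5 replicate 3 and E17.5 replicate 2. The SD of the deviations from the day mean, over genes, was 0.277 on E18.5 replicate 3 and 0.234 on E17.5 replicate 2, against 0.196 and 0.175 on the other E17.5 arrays and 0.236 and 0.238 on the other E18.5 arrays. E17.5 replicate 2 stood out within its day, and E18.5 replicate 3 lay farthest along the second principal component of the 6 arrays. The array medians lay between 3.82 and 3.91, and a value near them is close to background. Arrays give no counts, so the number of arrays limits the precision, and the p-values measure the spread between pooled samples.

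Markers of cell types other than lymphatic endothelium moved between the days. The mean log2 level of the alveolar type I list was 5.82, 5.39 and 5.31 on the E17.5 arrays and 6.84, 7.02 and 6.97 on the E18.5 arrays. The alveolar type II list read 5.71, 4.85 and 4.74 against 7.13, 6.85 and 7.06. E17.5 replicate 1 was the highest array of its day in both lists, and the days did not overlap in either. The fibroblast and stromal list read 6.83, 6.78 and 6.43 against 7.97, 7.78 and 6.93, and the platelet list 5.21, 5.54 and 5.25 against 7.12, 6.55 and 4.95. On both lists E18.5 replicate 3 was the lowest array of its day, and for platelets it lay below all E17.5 arrays. The lymphatic list overlapped between the days, at 7.18, 6.82 and 7.32 against 7.18, 7.67 and 7.29, and its 9 members moved both ways (6 positive and 3 negative changes, median 0.36), and the general capillary list read 9.81, 9.70 and 9.80 against 9.43, 9.47 and 9.78. The part of these cell types in the results that follow was not tested beyond the values given beside them. In bulk RNA of sorted cells, more cells of a type and more RNA per cell cannot be told apart.

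**Figure D1:**
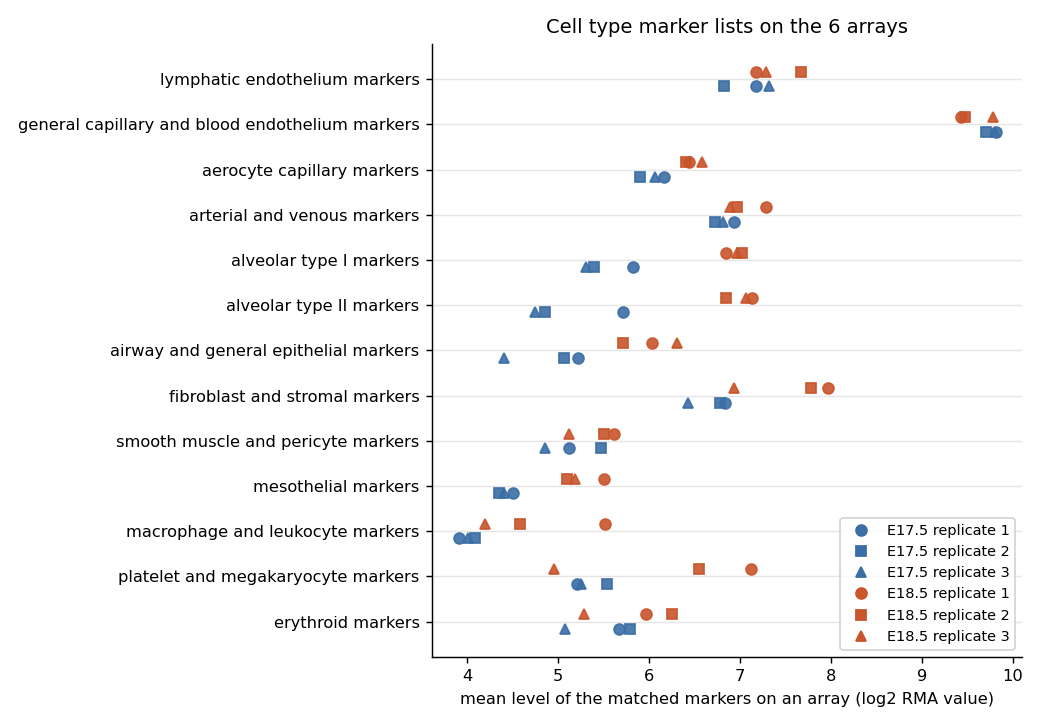
Mean log2 level of each of 13 cell type marker lists (rows) on the 3 E17.5 arrays (blue) and the 3 E18.5 arrays (orange), with 1 symbol per replicate. Alveolar type I and type II markers separated the days (4.74 to 5.82 against 6.84 to 7.13), platelet markers spread from 4.95 to 7.12 within E18.5, and lymphatic markers overlapped.

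In the last day before E18.5, limma called 168 upregulated and 103 downregulated genes at an FDR q under 0.05, which is 1.21% and 0.744% of the genes tested. Before correction, 1201 genes (8.68%) had a higher and 1261 (9.11%) a lower level at a p under 0.05. Counts within the gene lists below are to be read beside these shares of all genes. All 3 E18.5 samples lay above all 3 E17.5 samples for 1171 genes (8.46%) and below them for 1589 (11.5%), and every called gene was among these. The rises were larger than the falls. The median log2 change was 1.28 over the upregulated and -0.87 over the downregulated genes, against -0.03 over all genes tested. A log2 change of at least 1 was reached by 117 upregulated and 24 downregulated genes, and of at least 2 by 19 and 0. For 35 of the upregulated genes the E17.5 mean lay below the lowest E17.5 array median, so their fold changes are uncertain in size. Of the upregulated genes 20, and of the downregulated genes 7, were above the array median only at the day at which they were higher. Such genes entered the test through their difference and count as no support, and 148 upregulated and 96 downregulated genes remain without them. Those named here are *Isg15*, *Gm4951*, *Sftpd*, *Il33*, *Lamb3*, *Liph*, *Ntrk2*, *Serpina3n*, *Dnah11* and *Cfap206*.

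The number of calls depended on single arrays. Without E18.5 replicate 3 it rose to 436 upregulated genes (3.18%) and 226 downregulated genes (1.65%) of 13729 tested. Without E17.5 replicate 2 it fell to 18 (0.131%) and 2 (0.0146%) of 13706, and without E17.5 replicate 3 to 6 and 0. All 20 and all 6 of the genes left in these 2 fits were among those called with all arrays. 6 genes were called whichever of the 9 arrays was left out: *Lyz1*, *Inmt*, *Sec14l3*, *Il6*, *Rtkn2* and *Olr1*, all upregulated. Within the gene lists the calls moved alike: over the 6 fits that left out an array of E17.5 or E18.5 they ran from 2 to 12 for alveolar type I, 1 to 10 for type II, 0 to 8 for antiviral, 0 to 7 for complement, 1 to 9 for lipid and 0 to 11 for interstitial matrix genes that were higher, and from 0 to 24 for replication and 0 to 27 for mitosis genes that were lower. The filter at the array median removed, as its nearest cases, *Cc2d2b*, *Cutc* and *Abhd1*, each of which equalled the median on 1 array and exceeded it on none, and kept *Zfp420*, *Epha10* and *Chst10*, which lay just above.

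**Figure D2:**
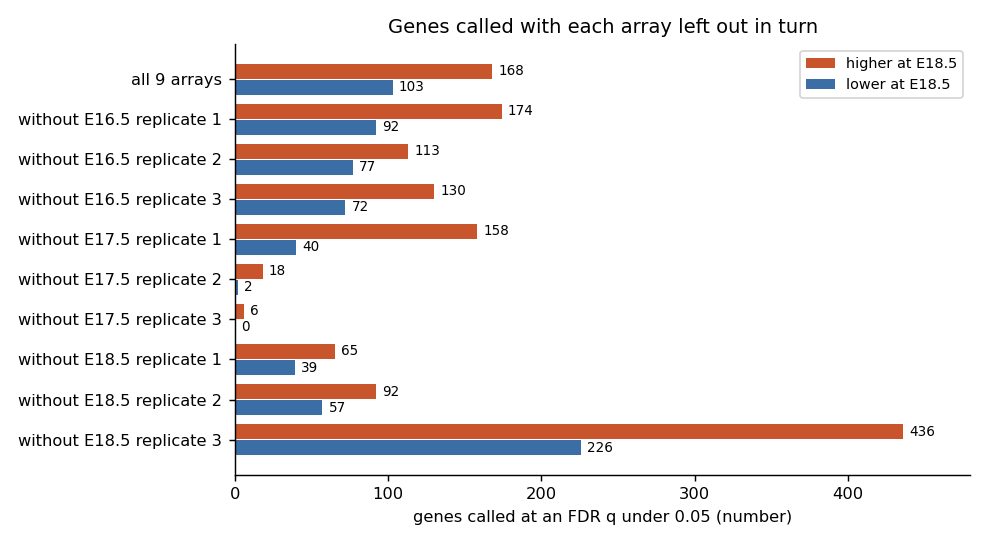
Number of genes called at an FDR q under 0.05 (x axis) as higher (orange) or lower (blue) at E18.5, with all 9 arrays and with each array left out in turn (rows). The counts ran from 6 and 0 without E17.5 replicate 3 to 436 and 226 without E18.5 replicate 3.

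**Figure D3:**
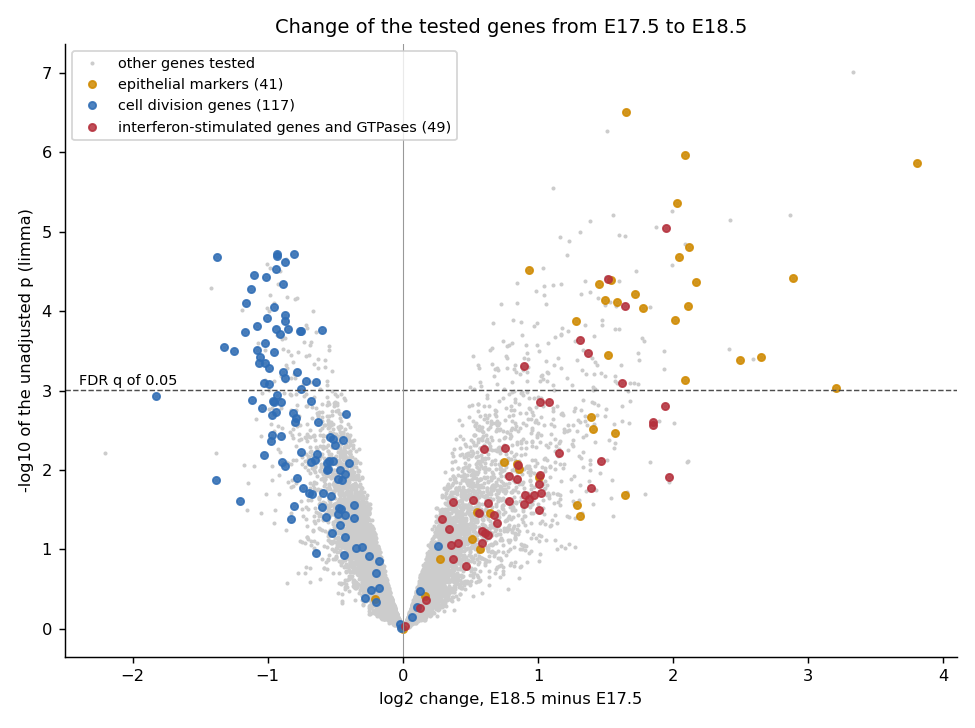
Log2 change from E17.5 to E18.5 (x axis) and -log10 of the unadjusted p from limma (y axis) for the 13839 genes tested, 1 point per gene. The 41 epithelial markers (gold) and the 49 interferon-stimulated genes and GTPases (red) lay mostly to the right, the 117 cell division genes (blue) mostly to the left, and 23, 7 and 40 of them were past the FDR q of 0.05 (dashed line).

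Many alveolar epithelial transcripts were upregulated. Of the 41 epithelial marker genes tested, 23 were upregulated (1 of them, *Sftpd*, above the array median at E18.5 only) and 0 downregulated, against 1.21% of all genes. *Lyz1*, a lysozyme that marks alveolar type II cells in the mouse, read 5.10, 3.27 and 4.07 at E17.5 and 7.82, 7.95 and 8.08 at E18.5. It rose 14.0-fold (log2 change 3.8, SE 0.37, FDR q = 0.0037), the largest change called, and its E17.5 arrays spread over more than a log2 unit while its E18.5 arrays lay close together. *Scgb1a1*, the secretoglobin of club cells, read 6.67, 4.07 and 3.75 against 9.06, 7.64 and 7.40. It was higher on replicate 1 of each day and rose by a log2 change of 3.20 (SE 0.68, FDR q = 0.048).

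Of 13 alveolar type II genes, 10 were upregulated, with a median log2 change of 2.09 over the list. They included the surfactant protein genes *Sftpa1* (log2 change 2.11, SE 0.33), *Sftpb* (2.09, SE 0.43) and *Sftpd* (1.5), the lamellar body glycoprotein gene *Lamp3* (2.65, SE 0.50), the phosphate transporter gene *Slc34a2* (2.5, SE 0.48), the chitinase-like gene *Chil1* (2.17, SE 0.31) and *Napsa*, a protease that processes surfactant proteins (1.52). *Sftpb* read 7.09, 6.37 and 5.72 at E17.5 and 8.84, 8.14 and 8.47 at E18.5, without overlap. *Sftpc*, another surfactant protein gene of the list, read 9.07 to 9.80 at E17.5 and up to 11.26 at E18.5 without overlap, with a log2 change of 1.57 at an FDR q of 0.088. *Abca3* and *Etv5* overlapped between the days (log2 change 0.16 and 0.00). Without E17.5 replicate 2 or E17.5 replicate 3, 1 gene of the list was still called, and without E18.5 replicate 3 there were 9.

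Of 15 alveolar type I genes, 12 were upregulated, with a median log2 change of 1.58. *Ager*, the receptor for advanced glycation end products and a defining transcript of type I cells, read 7.90, 7.42 and 6.83 at E17.5 and 9.35, 9.48 and 9.45 at E18.5, a log2 change of 2.04 (SE 0.27, FDR q = 0.011). *Rtkn2*, a marker of type I cells, read 4.07, 3.78 and 3.64 against 5.36, 5.64 and 5.44, a log2 change of 1.65 (SE 0.14, FDR q = 0.0022). *Emp2*, *Sec14l3*, *Cldn18*, *Clic3*, *Akap5* and *Krt7* rose by between 1.54 and 2.08. *Clic5*, *Hopx* and *Igfbp2* did not pass the test (FDR q = 0.13, 0.13 and 0.71), and *Igfbp2*, which is best known from late type I cells, had a log2 change of -0.21. Without E17.5 replicate 2, 4 type I genes were called, and without E17.5 replicate 3 there were 2.

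Airway and general epithelial genes were less uniform. Of 13 tested, *Scgb1a1* alone was upregulated, 10 of them had an unadjusted p under 0.05, and all 13 had a positive change (median 1.01). But 2 of the 13, *Foxj1* among them, were above the array median only at E18.5 and count as no support. Without the filter, 15 of 16 had a positive change (median 0.75). The E-cadherin gene *Cdh1* read 6.0, 5.71 and 4.93 against 6.85, 6.90 and 7.10 (log2 change 1.41, FDR q = 0.083). *Foxj1*, the master factor of ciliated cells, read 3.62 on all 3 E17.5 arrays and 4.73, 3.8 and 4.0 at E18.5 (log2 change 0.55, FDR q = 0.24). The basal cell and airway progenitor genes *Krt5* and *Sox2* stayed below the array medians on all 6 arrays.

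Fluid clearance depends on epithelial sodium uptake through the channel ENaC and on the sodium pump. Of 11 genes of this process tested, 4 were upregulated. *Scnn1a*, the alpha subunit of ENaC, read 5.15, 4.62 and 4.76 at E17.5 and 6.44, 7.33 and 7.03 at E18.5 (log2 change 2.09, SE 0.26, FDR q = 0.0099). The gamma subunit gene *Scnn1g* (1.45, SE 0.21) and the water channel gene *Aqp5* (2.12, SE 0.27) rose alike, and the beta subunit gene *Scnn1b* had a log2 change of 0.62 at an FDR q of 0.057. *Atp1b1*, a beta subunit of the sodium pump, rose by 1.57 (SE 0.33, FDR q = 0.043). *Aqp1*, the water channel of endothelium, did not pass the test (log2 change 0.37, FDR q = 0.47). *Aqp5* and *Scnn1g* are also members of the type I list, whose mean levels are given above.

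Some interferon-stimulated genes were upregulated. Type I interferon acts through its receptor and a complex of Stat and Irf factors that binds the interferon-stimulated response element in the promoters of antiviral effector genes. Of 49 antiviral genes and interferon-inducible GTPases tested, 7 were upregulated and 0 downregulated, against 1.21% and 0.744% of all genes. Of the 7, *Isg15* and *Gm4951* were above the array median only at E18.5, which leaves 5 calls, all of antiviral genes. All 49 had a positive change, 37 of them with an unadjusted p under 0.05 (against 8.68% of all genes). In 30 the 3 E18.5 samples lay above the 3 E17.5 samples, against 8.46% of all genes. These counts hold 3 genes that were above the array median only at E18.5. The list had been written with the interferon result of these data known, so its direction is no independent evidence.

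*Ifit1*, an effector that binds viral RNA caps, read 4.32, 3.97 and 4.15 at E17.5 and 6.60, 5.55 and 6.13 at E18.5. It rose 3.85-fold (log2 change 1.95, SE 0.23, FDR q = 0.0088), and the days did not overlap. *Isg15*, a ubiquitin-like modifier, read 2.83, 2.72 and 2.96 against 3.99, 4.32 and 5.14, a log2 change of 1.64 (SE 0.26, FDR q = 0.015) from a level below the array medians, so that it was admitted by its E18.5 values. *Mx2*, an antiviral GTPase, read 4.17, 3.12 and 3.96 against 6.07, 4.78 and 5.25 (1.62, SE 0.34, FDR q = 0.044). *Lgals3bp*, a secreted glycoprotein, and *Oasl1*, a relative of the 2-5A synthases, rose by 1.37 and 0.90 (FDR q = 0.029 and 0.035).

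E17.5 replicate 2 lay low in both lists. *Iigp1*, an immunity-related GTPase, read 7.50, 5.17 and 6.54 at E17.5 and 8.30, 8.18 and 8.27 at E18.5, and did not pass the test (log2 change 1.85, FDR q = 0.078). *Gbp4*, a guanylate-binding protein gene, read 5.71, 2.78 and 5.50 against 6.10, 7.11 and 6.71 (1.97, FDR q = 0.15). *Gm4951*, the GTPase gene that was called, rose by 1.31 (SE 0.23, FDR q = 0.026) from 3.46, 2.60 and 3.31 to 4.76, 4.36 and 4.18, and it too was admitted by its E18.5 values. Without E17.5 replicate 2 the antiviral list held 1 called gene and the GTPases 0, without E17.5 replicate 3 both held 0, and without E18.5 replicate 3 they held 7 and 1. In the earlier interval, from E16.5 to E17.5, the median log2 change was 0.58 for the antiviral genes and 0.87 for the GTPases, beside 0.72 and 1.01 in the later one.

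The promoters of *Ifit1* and *Isg15* are shown because they are the called interferon genes that held the core of the response element, GAAANNGAA on either strand. The sequences run 5′ to 3′ along the gene from 250 bases before to 50 bases after the transcript start (RefSeq, GRCm38.p6), and capitals mark the matches, of which each promoter held 3, some overlapping. *Ifit1* lies at chr19:34640639-34640938 on the plus strand and *Isg15* at chr4:156200769-156201068 on the minus strand.
Ifit1: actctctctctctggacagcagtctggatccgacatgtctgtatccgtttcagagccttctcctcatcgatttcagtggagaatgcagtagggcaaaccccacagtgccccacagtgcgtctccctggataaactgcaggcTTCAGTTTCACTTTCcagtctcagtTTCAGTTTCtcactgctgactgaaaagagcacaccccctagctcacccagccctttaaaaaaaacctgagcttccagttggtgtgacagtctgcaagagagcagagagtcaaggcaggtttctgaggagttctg
Isg15: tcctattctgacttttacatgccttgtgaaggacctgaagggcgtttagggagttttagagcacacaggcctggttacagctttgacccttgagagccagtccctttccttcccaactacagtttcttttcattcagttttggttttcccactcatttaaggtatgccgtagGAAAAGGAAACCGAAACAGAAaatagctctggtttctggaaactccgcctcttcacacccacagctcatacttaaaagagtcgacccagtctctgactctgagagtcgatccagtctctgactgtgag

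A promoter was found for 10151 of the genes tested, and 8.52% of these held the core. The share was 16.8% (20 of 119) in upregulated and 8.75% (7 of 80) in downregulated genes, and 61.8% (21 of 34) in the antiviral and GTPase lists. In *Ifit1* the matches began at positions -109, -103 and -84 from the transcript start, and in *Isg15* at -78, -72 and -66. A match is a description of letters in a window and not evidence of binding.

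Of 20 receptor, Stat, Irf and Socs genes, which sense and pass on the interferon signal, limma called 0. Beside the 1.21% called higher of all genes, 0 of 20 does not show that the list was unchanged. Before correction 8 were higher and 1 was lower at a p under 0.05, against 8.68% and 9.11% of all genes. *Irf7*, the factor that amplifies the response, read 6.10, 5.40 and 6.28 against 7.12, 6.54 and 7.71 (log2 change 1.20, SE 0.31, FDR q = 0.083). The receptor chain gene *Ifnar1* lay between 8.59 and 8.74 at E17.5 and between 8.12 and 8.56 at E18.5 (-0.36, FDR q = 0.25). Among the 17 presentation genes of MHC class I, *H2-T23*, a non-classical class I gene that can share probes with its close relatives, was upregulated (1.57, SE 0.27, FDR q = 0.022), and the median of the list was 0.26.

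Complement and cytokine genes rose in part. Of 13 complement genes tested, 3 were upregulated. Another 5 were above the array median only at E18.5, entered the list through their difference and count as no support. *Hc*, which encodes C5, read 4.02, 2.93 and 2.88 at E17.5 and 6.53, 5.74 and 6.16 at E18.5, a log2 change of 2.86 (SE 0.33, FDR q = 0.0084). *C7*, a part of the membrane attack complex, read 5.15, 3.40 and 4.39 against 7.19, 7.68 and 5.83 (2.59, SE 0.49, FDR q = 0.032). For *C7* E18.5 replicate 3 was the lowest array of its day, as it was in the fibroblast list, and without it 7 complement genes were called. These 7 were not split by the day on which they passed the filter. *C3* read 4.17, 3.8 and 3.71 against 6.67, 5.20 and 4.84 (1.68, FDR q = 0.060).

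Of 28 chemokine, cytokine and receptor genes, 5 were upregulated. Above the array median only at E18.5 were 5 of the 28, the called *Il33* among them, and these count as no support. *Il6*, the cytokine of the acute phase, read 4.91, 3.88 and 4.91 at E17.5 and 6.80, 7.0 and 7.18 at E18.5, and rose 5.37-fold (log2 change 2.42, SE 0.28, FDR q = 0.0085). *Cxcl1*, which attracts neutrophils, read 5.34, 5.05 and 5.13 against 6.43, 6.97 and 6.78 (1.55, SE 0.18, FDR q = 0.0084). In both genes the days did not overlap. *Cxcl16* and the alarmin gene *Il33* rose by 1.03 and 0.88 (FDR q = 0.039 and 0.036). *Cxcl15*, a chemokine of lung epithelium that also stands in the type II list, read 6.46, 5.13 and 4.83 against 8.37, 8.35 and 8.37 (2.89, SE 0.41, FDR q = 0.012). The lymphatic scavenging receptor genes *Ackr2* and *Ackr3* did not pass the test (log2 change 0.34 and -0.47).

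*Traf1*, a receptor adaptor and target of NF-kB, was the gene called among 15 NF-kB subunits and inhibitors (0.67, SE 0.11, FDR q = 0.021). The motif searched for this factor (GGGACTTTC, GGGAATTTC or GGGGATTTC on either strand) was in 0.975% of the promoters of genes tested, in 2.52% (3 of 119) of upregulated and in 2.5% (2 of 80) of downregulated genes. None of 10 leukocyte adhesion genes tested was called in limma, with 2 higher at an unadjusted p under 0.05; the closest was *Cd274*, which encodes PD-L1 (0.89, SE 0.20, FDR q = 0.054).

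Leukocyte and platelet lists had higher mean levels at E18.5, for leukocytes on all 3 arrays and for platelets on 2 of them. None of 15 leukocyte and 18 platelet markers passed the test in limma, though 7 and 4 had an unadjusted p under 0.05. Above the array median only at E18.5 were 6 of the leukocyte and 1 of the platelet markers. They entered the means and counts through their difference and count as no support. Without the filter, 16 of 19 leukocyte markers had a positive and 3 a negative change. The mean of the leukocyte list was 3.91, 4.09 and 4.01 at E17.5 and 5.51, 4.58 and 4.19 at E18.5, and its defining markers *Adgre1* and *Cd3e* stayed below the array medians throughout. *Ppbp*, a chemokine stored in platelets, read 7.42, 7.42 and 7.71 at E17.5 and 10.07, 9.31 and 6.77 at E18.5. *Ppbp* and the mean of the platelet list were thus above all E17.5 arrays on E18.5 replicates 1 and 2 and below them on replicate 3. Without E18.5 replicate 3, 14 of the 18 platelet markers and 3 leukocyte markers were called.

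Part of the cell division genes were downregulated. Of 117 genes of DNA replication, mitosis, recombination and histones tested, 40 were downregulated and 0 upregulated, against 0.744% of all genes. In 90 of them the 3 E18.5 samples lay below the 3 E17.5 samples, against 11.5% of all genes, and 4 had a positive change (*Ccnd2*, *Ccnd3*, *Cdk6* and *Timeless*, 0.07 to 0.26, none called). The 117 hold 4 genes, 3 of them of recombination, that were above the array median only at E17.5. Such genes entered through their difference and count as no support, and none of them was called. The list had been written with an earlier result of this kind known.

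DNA replication starts where the Mcm helicase is loaded onto origins by Cdt1 and Cdc6 and is then activated with Cdc45 and the GINS complex. Of 46 replication genes, 18 were downregulated, with a median log2 change of -0.61. *Mcm5* read 6.83, 7.09 and 6.85 at E17.5 and 5.85, 5.11 and 6.06 at E18.5 (log2 change -1.25, SE 0.23, FDR q = 0.029). *Mcm2*, *Mcm3*, *Mcm6* and *Mcm7* fell too (-0.81 to -1.01), whereas *Mcm4* did not pass the test (-0.34, FDR q = 0.36). *Hells*, a chromatin remodeller of dividing cells, read 5.94, 5.69 and 5.57 against 4.33, 4.49 and 4.27, the largest fall of the list (-1.37, SE 0.18, FDR q = 0.011). The catalytic subunit gene *Pole* (-1.17), the primase genes *Prim1* (-1.16) and *Prim2* (-0.60), the checkpoint mediator gene *Clspn* (-1.13) and *Lig1*, the ligase that joins nascent fragments (-0.93), were among the others downregulated. *Pcna*, the sliding clamp, lay between 10.33 and 10.72 at E17.5 and between 9.98 and 10.40 at E18.5 (-0.36, FDR q = 0.25).

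Of 51 mitosis and cyclin genes, 20 were downregulated, with a median of -0.89. *Fbxo5*, the inhibitor of the anaphase-promoting complex also called Emi1, read 6.31, 6.28 and 6.10 against 4.76, 4.45 and 5.50 (-1.33, SE 0.24, FDR q = 0.027). *Nuf2*, a kinetochore protein, read 6.52, 6.39 and 6.55 against 5.63, 5.09 and 5.43 (-1.10, SE 0.15, FDR q = 0.012). In these genes and in *Mcm5*, E18.5 replicate 2 was the lowest array of its day. The checkpoint kinase genes *Bub1* (-1.08) and *Ttk* (-0.89), the motor genes *Kif2c* (-1.08), *Kif11* (-0.99) and *Kif23* (-0.94), the cyclin genes *Ccna2* (-1.02), *Ccnb2* (-0.76) and *Ccne2* (-0.87), and the transcription factor genes *Foxm1* (-1.0) and *E2f8* (-1.03) were also downregulated. *Mki67* read 8.85, 8.52 and 8.34 against 7.62, 7.92 and 7.96 and did not pass the test (-0.74, FDR q = 0.17).

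Recombination genes were called in 2 of 14 cases, both downregulated, and *Exo1*, an exonuclease gene, fell by 1.05 on the log2 scale (FDR q = 0.031). None of 6 histone genes tested was called in limma, with 4 at an unadjusted p under 0.05. *H2ac11* read 7.17, 7.73 and 7.03 against 5.21, 4.76 and 6.48 (-1.83, SE 0.40, FDR q = 0.055), and histone genes of a cluster can share probes. Among 19 cyclin-dependent kinase inhibitors and p53 targets, *Gadd45b*, a stress-induced gene, was upregulated (1.49, SE 0.23, FDR q = 0.015) and *Trp53* itself was downregulated (-0.68, SE 0.12, FDR q = 0.027), while *Trp53* lay between 8.48 and 9.47 on all 6 arrays.

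The division calls also moved with the arrays. Without E18.5 replicate 3, 24 replication and 27 mitosis genes were called, without E17.5 replicate 2 there were 0 and 1, and without E17.5 replicate 3 there were 0 and 0. In the earlier interval the median log2 change was -0.80 for the replication list and -0.56 for the mitosis list, so the later interval continued a change in the same direction.

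E2F factors bind the promoters of genes of the S phase. The motif TTTGGCGC or TTTCCCGC was on either strand of 3.47% of the promoters of genes tested, of 14 of 80 promoters of downregulated and 1 of 119 of upregulated genes, and of 20.5% (16 of 78) of the replication and mitosis genes. The promoters of *Hells* and *Mcm5* are shown because these were the largest called falls of the 2 lists with a match. Both are written as for the interferon genes above, with the match in capitals, on the plus strand at chr19:38930740-38931039 and chr8:75109259-75109558, and the matches began at positions -62 and -149.
Hells: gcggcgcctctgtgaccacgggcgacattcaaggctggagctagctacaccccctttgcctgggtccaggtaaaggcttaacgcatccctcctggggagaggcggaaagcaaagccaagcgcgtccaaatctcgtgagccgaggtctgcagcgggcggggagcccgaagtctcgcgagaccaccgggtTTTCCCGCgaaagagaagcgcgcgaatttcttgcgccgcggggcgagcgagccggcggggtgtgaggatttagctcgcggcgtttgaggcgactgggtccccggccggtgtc
Mcm5: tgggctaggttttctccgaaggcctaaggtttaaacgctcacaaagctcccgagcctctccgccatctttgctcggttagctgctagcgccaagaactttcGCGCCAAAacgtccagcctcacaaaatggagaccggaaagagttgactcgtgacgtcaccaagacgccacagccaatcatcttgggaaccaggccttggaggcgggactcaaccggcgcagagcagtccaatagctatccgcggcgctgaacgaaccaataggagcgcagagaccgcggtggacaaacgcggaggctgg

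Genes of ribosome and protein synthesis did not pass the test, though their changes were mostly negative. Of 25 ribosome biogenesis genes 24 had a negative change, with a median of -0.39, 10 at an unadjusted p under 0.05 and 0 called. All 29 mitochondrial ribosomal and respiratory chain genes were lower on average (median -0.25, 8 at an unadjusted p under 0.05), as were 19 of 23 splicing factors (median -0.25). The smallest q in these lists was 0.070, of the spliceosome gene *Sf3b3*, which lay between 8.06 and 8.22 at E17.5 and between 7.66 and 7.72 at E18.5. Among fetal and imprinted growth genes *Grb10*, which restrains insulin signalling, had the smallest p (-0.37, SE 0.10, FDR q = 0.10).

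Among the genes of lymphatic identity and growth, 4 of 31 were upregulated and 1 downregulated. *Stab2*, a receptor that clears hyaluronan, read 6.43, 6.43 and 6.78 at E17.5 and 4.88, 5.04 and 5.46 at E18.5, and this was the largest fall called (log2 change -1.42, SE 0.21, FDR q = 0.013). *Ccbe1*, the secreted factor that lets Vegfc be processed, read 4.74, 4.10 and 4.02 against 5.52, 5.47 and 5.39 (1.18, SE 0.20, FDR q = 0.022). *Pdpn*, the sort marker, read 6.12, 6.03 and 5.68 against 7.15, 7.69 and 6.80, a rise of 2.42-fold (1.28, SE 0.23, FDR q = 0.026). *Pdpn* is also a surface protein of alveolar type I cells, whose markers rose on the same arrays. *Vegfa* (1.28, SE 0.21, FDR q = 0.020), which stands in the type I list as well, and *Fgfr3*, a growth factor receptor gene (1.35, SE 0.27, FDR q = 0.039), were the remaining upregulated members. *Vegfc* and *Nrp2*, the ligand and co-receptor of Vegfr3, did not pass the test (0.37 and 0.02), and *Reln*, a matrix protein of collecting lymphatics, read 4.88, 3.72 and 5.06 against 5.28, 6.01 and 5.07 (0.90, FDR q = 0.22). *Sox18*, the factor that switches on *Prox1* in the embryo, read 8.74, 9.59 and 8.84 against 7.71, 8.20 and 8.36 (-0.97, FDR q = 0.16). Without E17.5 replicate 2 or E17.5 replicate 3, 0 of these 31 genes were called, and without E18.5 replicate 1 or 2 *Stab2* alone was.

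**Figure D4:**
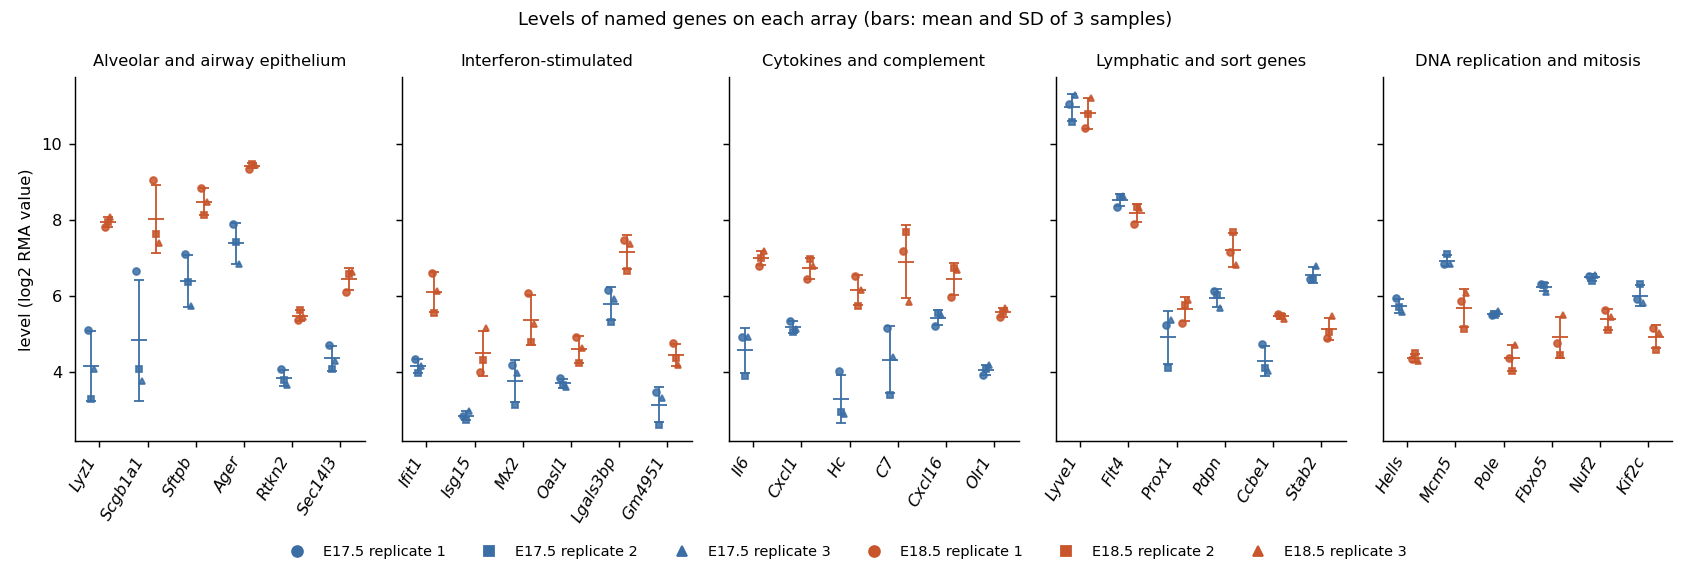
Log2 level of 30 named genes (x axis, in 5 panels) on the E17.5 arrays (blue) and the E18.5 arrays (orange), with a symbol per replicate and bars for the mean and SD of 3 samples. The genes plotted for epithelium, interferon, cytokines and complement, and cell division were picked from the called genes. Every called gene separated the days, so the separation in these panels follows from the choice. Over the whole lists, 30 of 49 interferon genes lay above and 90 of 117 cell division genes lay below on all 3 E18.5 arrays. *Lyve1* and *Prox1* overlapped.

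Genes of other endothelial programs were called in some lists, beside 1.21% (higher) and 0.744% (lower) of all genes. At these shares lists this small hold few or no calls, so none called does not show that a program was unchanged. None of 14 junction genes was called in limma. *Jam3* alone was lower at an unadjusted p under 0.05 (-0.47, FDR q = 0.22), against 9.11% of all genes. None of 15 Notch genes was called, though 6 were lower at an unadjusted p under 0.05 (9.11% of all genes); *Notch4* read 7.95, 7.93 and 8.05 against 7.36, 7.37 and 7.68 (-0.51, SE 0.12, FDR q = 0.060). *Plvap*, the diaphragm protein of capillary fenestrae, had a log2 change of -0.67 (FDR q = 0.073). *Car4*, the carbonic anhydrase that marks aerocytes, the capillary cells of gas exchange, read 7.17, 6.14 and 7.09 against 8.26, 8.15 and 8.85 (1.62, SE 0.38, FDR q = 0.063). *Vwf* had a log2 change of 0.82 at an FDR q of 0.071. In semaphorin and guidance genes *Plxnd1*, the receptor of Sema3e, was downregulated (-0.76, SE 0.13, FDR q = 0.022) from 9.53, 9.78 and 9.73 to 8.83, 8.81 and 9.13, and *Sema5a* was upregulated (1.17, SE 0.23, FDR q = 0.036). *Bmp6*, a ligand made by endothelium, rose 1.99-fold (1.0, SE 0.17, FDR q = 0.021) and was the gene called among 21 of the TGF-beta and BMP pathways.

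Matrix genes changed in both directions. Of 30 elastic fibre and interstitial matrix genes, 4 were upregulated and 1 downregulated, with a median of 0.63. *Dpt*, the dermatopontin gene that also marks fibroblasts, read 7.23, 6.94 and 6.90 at E17.5 and 9.25, 9.14 and 7.99 at E18.5 (log2 change 1.77, SE 0.31, FDR q = 0.024). *Spon1* (1.60), *Pcolce2* (1.33) and *Spock2* (0.93), which encode secreted matrix proteins, were the other upregulated members, and *Spock2* is in the type I list too. E18.5 replicate 3 was the lowest array of its day for *Dpt*, *Spon1* and *Pcolce2*, and without it 11 members were called higher. *Fbn2*, the fibrillin of the fetus, read 6.62, 6.86 and 6.61 against 5.70, 5.62 and 5.69 (-1.03, SE 0.21, FDR q = 0.044), and this call was lost whichever of the 6 arrays was left out. *Inmt*, a methyltransferase gene of the fibroblast list, read 4.14, 4.02 and 3.64 against 7.41, 7.59 and 6.79, and its rise of 10.1-fold had the smallest p of all genes tested (log2 change 3.33, SE 0.24, FDR q = 0.0013). *Inmt* and *Dpt* were the 2 members called of 16 stromal genes tested, while the collagen genes *Col1a1*, *Col1a2* and *Col3a1* did not pass the test (0.60 to 0.62).

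In the basement membrane list 2 of 20 genes were upregulated and 1 downregulated. *Hspg2*, which encodes perlecan, read 9.25, 9.37 and 9.30 at E17.5 and 8.44, 8.24 and 8.52 at E18.5 (log2 change -0.91, SE 0.13, FDR q = 0.012). The laminin and collagen chain genes that rose were *Lamb3* (0.90, SE 0.18, FDR q = 0.035) and *Col4a3* (0.84, SE 0.13, FDR q = 0.015), both at low levels (3.44 to 3.92 at E17.5). *Col4a1* and *Col4a2*, the main chains of type IV collagen, did not pass the test (-0.19 and -0.18). Hyaluronan, the ligand of Lyve1 and Stab2, is made by Has enzymes. *Has1* read 5.03, 4.21 and 4.80 against 6.43, 6.28 and 6.06 (1.58, SE 0.25, FDR q = 0.015), and *Tnfaip6*, whose product modifies hyaluronan in inflammation, rose from 8.09, 7.01 and 7.45 to 8.98, 9.23 and 8.65 (1.44, SE 0.28, FDR q = 0.035). *Itgb5* was the gene called of 14 integrin chains (1.07, SE 0.19, FDR q = 0.026), and 0 of 15 metalloproteinases and inhibitors were called in limma, with 7 at an unadjusted p under 0.05.

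Lipid genes rose in part. Of 33 tested, 5 were upregulated and 15 had an unadjusted p under 0.05 in the same direction. *Olr1*, the receptor for oxidized low-density lipoprotein, read 3.91, 4.07 and 4.17 at E17.5 and 5.43, 5.57 and 5.68 at E18.5, a rise of 2.85-fold with replicates close together (log2 change 1.51, SE 0.13, FDR q = 0.0025). *Scd1*, the stearoyl-CoA desaturase gene that is also in the type II list, read 4.80, 3.31 and 3.40 against 5.75, 5.77 and 6.02 (2.01, SE 0.33, FDR q = 0.020). *Apoe* (1.40), *Liph* (1.07) and *Vldlr* (0.92) were the other members called, and the lipid synthesis genes *Fasn* and *Acaca* did not pass the test (0.18 and 0.01). Of 20 cholesterol synthesis genes *Soat1* and *Pmvk* rose by 0.66 and 0.58 (FDR q = 0.028 and 0.046).

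Signals made from lipids were also among the calls. *Ptgs2*, the inducible cyclooxygenase, read 7.27, 6.73 and 7.17 against 8.15, 8.99 and 8.52 (log2 change 1.5, SE 0.21, FDR q = 0.012). *Sphk1*, which makes sphingosine-1-phosphate, read 4.44, 4.42 and 4.52 against 5.50, 5.64 and 5.23 (0.99, SE 0.18, FDR q = 0.027). Each was the gene called in its list, of 12 and 10 tested, and the receptor gene *S1pr3* had a log2 change of 0.95 at an FDR q of 0.20.

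Glucocorticoids rise before birth and mature the lung. Of 18 genes of the glucocorticoid receptor and its targets, *Lcn2* (log2 change 1.62, SE 0.32, FDR q = 0.035) and *Errfi1* (0.84, SE 0.17, FDR q = 0.038) were upregulated and 11 had a positive change with an unadjusted p under 0.05. The receptor gene *Nr3c1* lay between 7.08 and 7.43 on all 6 arrays (-0.02). Without E18.5 replicate 3, 8 of these genes were called, and leaving out any other array of E17.5 or E18.5 left 0. Of 26 immediate early genes and Krüppel-like factors, all had a positive change, 11 had an unadjusted p under 0.05 and 0 were called in limma. *Zfp36*, which destabilizes cytokine transcripts, read 9.74, 8.75 and 9.32 against 10.59, 10.07 and 10.51 (1.12, SE 0.24) and missed the threshold by rounding (FDR q = 0.050). *Fos* and *Egr1* were lowest on E17.5 replicate 2 (7.29 and 7.51, against 8.26 to 9.55 on the other arrays). *Cryab*, a small heat shock protein, read 6.14, 6.09 and 5.99 against 7.51, 7.42 and 6.96 (1.23, SE 0.15, FDR q = 0.0094) and was the gene called of 21 chaperones.

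Other lists held 1 or 2 calls each. The antioxidant list held *Xdh* (log2 change 1.33, SE 0.25, FDR q = 0.029), the xanthine dehydrogenase gene, and *Srxn1* (0.86, FDR q = 0.039), of 22 tested. *Hk2*, a hexokinase gene, and *Vldlr* were called of 21 glycolysis genes and hypoxia targets (1.21 and 0.92), while the median of that list was -0.03. *Ntrk2*, the receptor of a neurotrophin, read 3.46, 3.23 and 3.30 at E17.5 and 4.45, 5.6 and 5.12 at E18.5 (1.73, SE 0.24, FDR q = 0.012). *Ctsh*, a cathepsin that also processes surfactant protein, rose by 1.78 (SE 0.32, FDR q = 0.026) and was the gene called of 23 lysosomal genes. *Slc7a5* and *Slc3a2*, the light and heavy chain of an amino acid transporter, changed in opposite directions (-0.69 and 0.52, FDR q = 0.043 and 0.049). The mesothelial genes *Msln* (1.99, SE 0.22, FDR q = 0.0084) and *Upk1b* (1.17, SE 0.20, FDR q = 0.023) rose, while *Wt1*, the factor that defines mesothelium, did not pass the test (0.18, FDR q = 0.56).

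**Figure D5:**
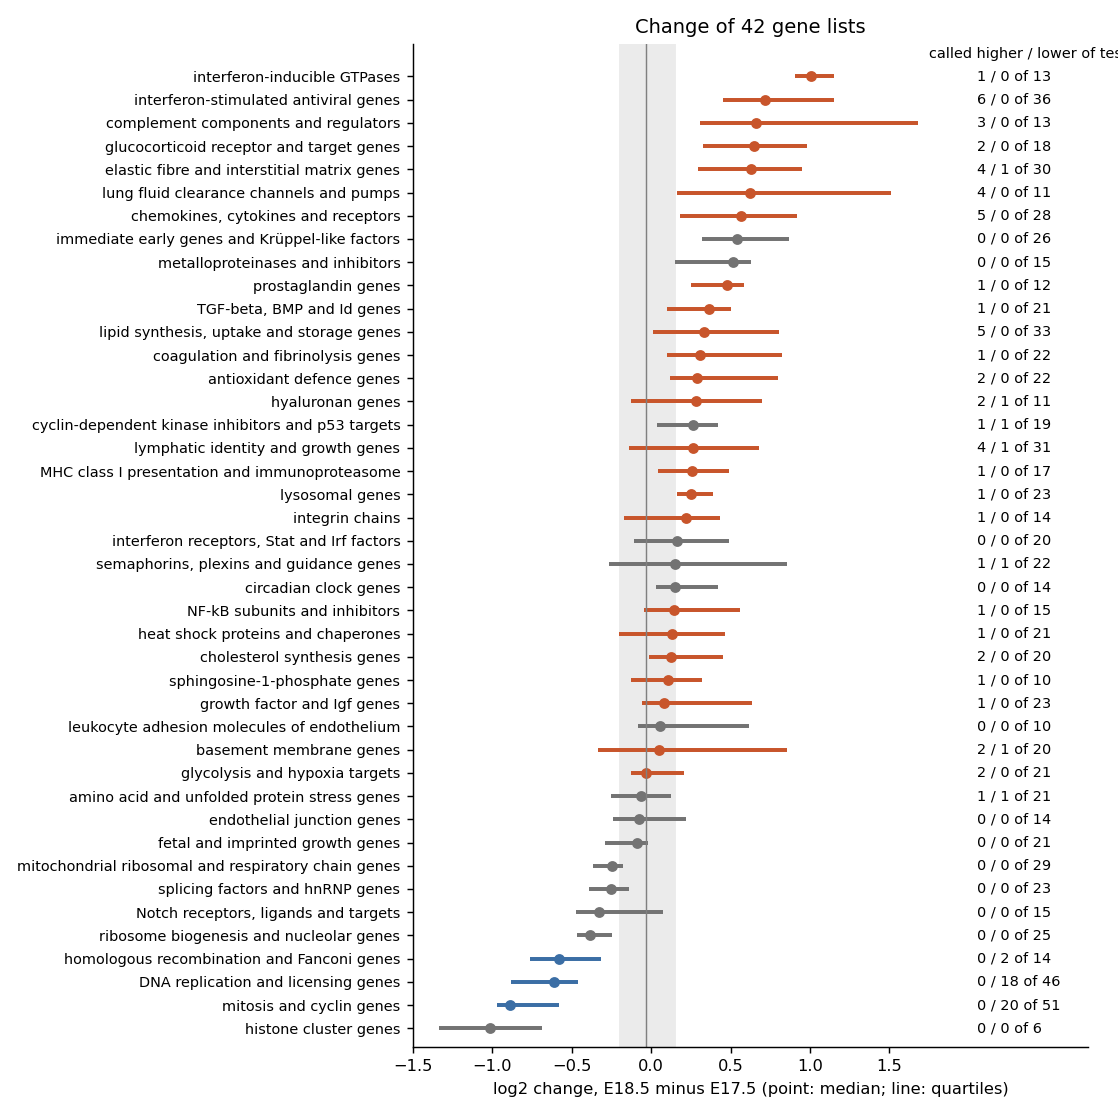
Median (point) and quartiles (line) of the log2 change, E18.5 over E17.5, among the tested members of 42 gene lists (rows), with the number called higher and lower of those tested at the right. The grey band and line are the quartiles and median of all genes tested (-0.03), orange and blue mark lists with more calls higher or lower, and grey lists have none or equal numbers; interferon-inducible GTPases led the rises (1.01) and mitosis and replication genes lay at -0.89 and -0.61.

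The later change was set against the change from E16.5 to E17.5 in the same fit. At an unadjusted p under 0.05 the 2 changes differed for 1121 genes (8.1%), and 0 passed the correction (smallest FDR q = 0.31, limma). Both changes use the E17.5 arrays with opposite sign, so a chance deviation at E17.5 moves them apart. The 5 genes with the smallest p were *Rtkn2*, *Inmt*, *Moxd1*, *Ptn* and *Perp*. *Inmt* had a log2 change of 0.50 in the earlier and 3.33 in the later interval, and *Rtkn2* of -0.12 and 1.65. *Moxd1*, a monooxygenase gene, went from -1.35 to 1.08, *Ptn*, which encodes pleiotrophin, from -1.23 to 0.43, and *Perp*, a desmosomal protein gene, from -0.61 to 1.35. For *Hells* the changes were -1.06 and -1.37, and for *Ifit1* 0.88 and 1.95, the same direction in both intervals.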

How the data were processed

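Total RNA of sorted PLECs was hybridised to Affymetrix Mouse Gene 2.0 ST arrays, 1 array per sample and 3 samples per day. The values are log2 levels that the authors made with RMA (background correction, quantile normalization over the 9 arrays, median-polish summary) with affy 1.36.1 and R 2.15.1, probes being grouped by Entrez Gene, and they were used as deposited. RMA forces the arrays to a common distribution, so a shift of all genes would not be seen. Symbols came from RefSeq (GRCm38.p6) for 23740 of the 25206 genes, and 1466 had none. limma 3.58.1 under R 4.3.3 was fitted to all 9 arrays with a mean per day, eBayes on all genes, and Benjamini-Hochberg correction over the 13839 genes that passed the filter on level. The test was also run on simulated data, with noise drawn independently for each gene and array. That noise holds no deviation shared by many genes of an array, so it does not check the calls on these arrays. The members, the 55 gene lists (1106 of 1129 members matched) and the tests were chosen with earlier results of these data known. Named genes are the 15 largest rises and falls called, up to 5 called members of each list (or the member with the smallest p), 8 sort and lineage genes and the 5 smallest p of the difference between intervals; other list members were added after their values were seen, to complete a family. Alternatives covered the filter, centring, a second quantile normalization, eBayes settings, array weights and the 6 arrays alone. They also covered a replicate block, an ordinary t-test on the 6 arrays and each array left out in turn. Some members of the lists are counted but not reported here by name.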

Additional observations from a re-analysis of the deposited data

How the results depend on the processing

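The calls rested on few arrays. Leaving out each array in turn gave from 6 to 436 genes higher and from 0 to 226 lower at E18.5, and from 0 to 2 genes whose later change differed from the earlier one. The lowest counts came without E17.5 replicate 3 and the highest without E18.5 replicate 3, in which 243 of the 271 genes called with all arrays were called again. Without E18.5 replicate 1 there were 65 higher and 39 lower, without E18.5 replicate 2 there were 92 and 57, and without E17.5 replicate 1 there were 158 and 40. Fitting the 6 arrays alone gave 59 higher and 32 lower, testing all 25206 genes 87 and 56, and calls by a fold of at least 2, p under 0.05 and q under 0.25, 282 and 41. An ordinary equal-variance t-test on the 6 arrays called 0 and 0 after correction, against 644 and 888 before it at a p under 0.05. It is not the paper's array test, which was the moderated one of limma. Centring the arrays on their medians gave 164 higher and 134 lower and moved the median of all genes to -0.07. The other filters, array weights, eBayes settings and normalization kept both counts within 1.5 times those reported. The change of *Lyve1* ran from -0.37 to 0.04 when arrays were left out and was 0.037 without E18.5 replicate 1. No other of the 121 genes named by the rules above changed sign. List members that were added later were not in this check. Of the values of these 121 genes under the alternatives, 615 lost and 16 gained the threshold and 1662 stayed on their side. The causes of these differences were not tested, and genes near the array medians are limited by signal over background.

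The samples of the 2 days share replicate numbers. The deviations of same-numbered arrays from their day means correlated at -0.0443, -0.135 and 0.179 across genes, so the numbers were not taken to pair the samples. With the replicate number as a block, 102 genes were higher and 46 lower, 134 of them among the 271.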

Other observations

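Of the called genes, 92 that rose and 57 that fell belonged to none of the gene lists, and those named here were chosen after their values were seen. *Retnla*, a secreted protein of the resistin family, read 4.36, 3.00 and 3.39 at E17.5 and 6.44, 5.12 and 6.44 at E18.5 (log2 change 2.42, SE 0.44, FDR q = 0.028, limma). *Plet1* and *Krt80*, an epithelial surface protein and a keratin gene, rose by 1.99 and 1.88 (FDR q = 0.012 and 0.0088). The S100 calcium-binding protein gene *S100a6*, the annexin gene *Anxa1* and the acute-phase gene *Serpina3n* rose by 1.64, 1.71 and 1.83 (FDR q = 0.0089, 0.044 and 0.0155). *Serpina3n* was above the array medians only at E18.5. *Fmo1* and *Fmo2*, flavin monooxygenase genes, rose by 1.60 and 1.74 (FDR q = 0.012 and 0.029). *Igfbp6*, which binds insulin-like growth factors, rose by 1.31 and *Rgs16*, a brake on G protein signalling, by 1.16 (FDR q = 0.0089 for both). *Dnah11* and *Cfap206*, genes of motile cilia, rose by 0.76 and 1.04 (FDR q = 0.031 and 0.014) and were above an array median on E18.5 replicate 3 alone, so that they were admitted by the array on which they were highest. Among the falls were *Col15a1*, a collagen of vascular basement membranes, and *Pde2a*, a phosphodiesterase gene, which fell by 0.87 and 0.93 on the log2 scale (FDR q = 0.0245 and 0.0233).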
